A study of Mus musculus with 6 samples.

Results

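The mouse genome names many zinc finger genes simply Zfp and a number. The 239 genes described here are all those whose symbol is Zfp followed by a number below 700 and nothing else, except Zfp683, out of 24346 genes listed in each library. The rule uses the name and no measured value, but the genes were chosen with earlier results of these data known. RNA sequencing compared 3 libraries of IL-33-treated with 3 libraries of PBS-treated CD11c+ dendritic cells from mouse spleen, and asked what this alarmin cytokine of the IL-1 family changes in them. Both groups were sorted on the surface integrin CD11c with autoMACS, and neither group carries a stated mutation or transgene. Mouse strain, age, dose, time and whether treatment was given in the animal or in culture are not stated in the labels. Nothing says that libraries of 1 group came from separate animals, so p-values measure the spread between libraries, which may be technical.

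A C2H2 zinc finger is a short fold held by a zinc ion between paired cysteines and histidines, and arrays of such fingers bind specific stretches of DNA or RNA. Many of the mouse genes also encode a KRAB domain, which recruits the corepressor TRIM28 (KAP1). TRIM28 in turn brings the histone methyltransferase SETDB1, HP1 proteins and DNA methylation to transposons and imprinted loci. KRAB zinc finger genes lie in clusters that arose by tandem duplication. Other genes of the same name series have unrelated work, such as RNA decay, ribosome assembly or the spindle checkpoint.

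Most of the numbered Zfp genes that were expressed stood lower in the IL-33 libraries than in the PBS libraries. Of the 239 genes, 173 reached at least 1 FPKM (mapped fragments per kilobase of transcript, relative to library size) in at least 3 of the 6 libraries and were tested. Changes are IL-33 minus PBS in log2(FPKM + 1), a scale that understates the change of low genes. With limma and an adjusted p below 0.05, 93 of the 173 fell (53.8%) and 8 rose (4.62%), while 72 did not pass. Over all 11518 genes tested, 25.5% fell and 28.0% rose. The median change was -0.31 among the 173 genes and 0.01 among all tested genes, and 151 of the 173 changes were negative (87.3%, against 49.2% of all tested genes). All 3 IL-33 libraries lay below all 3 PBS libraries in 112 of the 173 genes and above them in 12, where all tested genes gave 30.9% below and 32.7% above.

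The size of the falls was modest. Among the 93 genes that fell, the IL-33 mean was 0.385 to 0.874 times the PBS mean, with a median ratio of 0.667. On the log2(FPKM + 1) scale only 2 genes, Zfp318 and Zfp366, fell by more than 1. That scale understates the falls of low genes. With 0.1 added in place of 1, Zfp169, Zfp292, Zfp608, Zfp275 and Zfp445 changed by -1.21, -1.1, -1.08, -1.05 and -1.04. The IL-33 means of these genes were 0.408 to 0.484 times their PBS means. Among the 8 that rose, the ratio ran between 1.19 and 1.85, with a median of 1.27. In bulk libraries such as these, fewer cells of a type and less RNA per cell cannot be told apart.

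The summed FPKM of the members other than Zfp36 was 1182, 1227 and 1253 in the IL-33 libraries, against 1484, 1435 and 1393 in the PBS libraries. All 3 IL-33 sums were lower than any PBS sum. The median difference of the 173 genes from their PBS mean was -0.34, -0.31 and -0.27 in the IL-33 libraries, against 0.05, -0.01 and -0.05 in the PBS libraries. Of the 93 genes that fell, 57 had their highest value in PBS replicate 1 and 57 had their lowest in IL-33 replicate 1. Without IL-33 replicate 1, 67 genes fell, and without PBS replicate 1 also 67, against 72 to 82 without any other library.

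**Figure D1:**
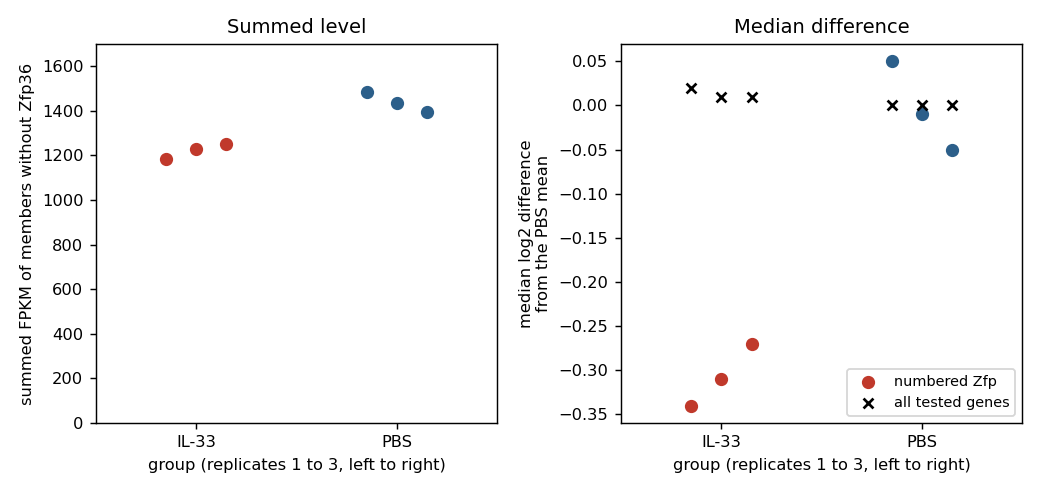
Left, summed FPKM of the numbered Zfp genes other than Zfp36 in each library (the axis starts at 0). Right, the median log2 difference of the 173 tested numbered Zfp genes from their PBS mean (filled points) and of all 11518 tested genes (crosses). The 3 IL-33 sums lie between 1182 and 1253, below the 3 PBS sums of 1393 to 1484, and all-gene medians lie within 0.02 of 0.

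The libraries differed in other ways that bear on these counts. Total FPKM was 841884, 778391 and 782587 in the IL-33 libraries, against 614522, 641412 and 640736 in the PBS libraries. With every library scaled to the same total, the median of all genes moved by -0.29, and then 50.7% of all tested genes fell and 11.1% rose. On that scale 149 of the 173 numbered Zfp genes fell and 1, Zfp524, rose. FPKM values carry no read counts and leave absolute depth unknown, and relative depth read from the steps of the lowest FPKM values ran between 0.946 and 1.22 times that of PBS replicate 1. Itgax, which encodes CD11c itself, was at 272, 300 and 276 FPKM with IL-33, against 228, 249 and 247 FPKM with PBS. Of 8 dendritic cell markers 5 rose and 2 fell, and all were detected.

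Markers of other cells moved with treatment too. T cell markers summed to 79.4 to 107 FPKM with IL-33, against 193 to 396 FPKM with PBS, and 10 of 11 tested fell. Natural killer cell markers summed to 197 to 307 FPKM with IL-33, against 499 to 569 FPKM with PBS, and 9 of 9 fell. Eosinophil markers summed to 870 to 1240 FPKM with IL-33, against 216 to 310 FPKM with PBS, and 6 of 8 rose. Neutrophil markers rose in 7 of 8 and plasma cell markers in 6 of 7, while 3 of 6 monocyte markers rose and 1, Ly6c2, fell, and 2 of 9 macrophage and 3 of 3 basophil and mast cell markers rose. No matched marker on these lists was at 0 in all libraries. The part of these cells in the falls of the Zfp genes was not tested.

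**Figure D2:**
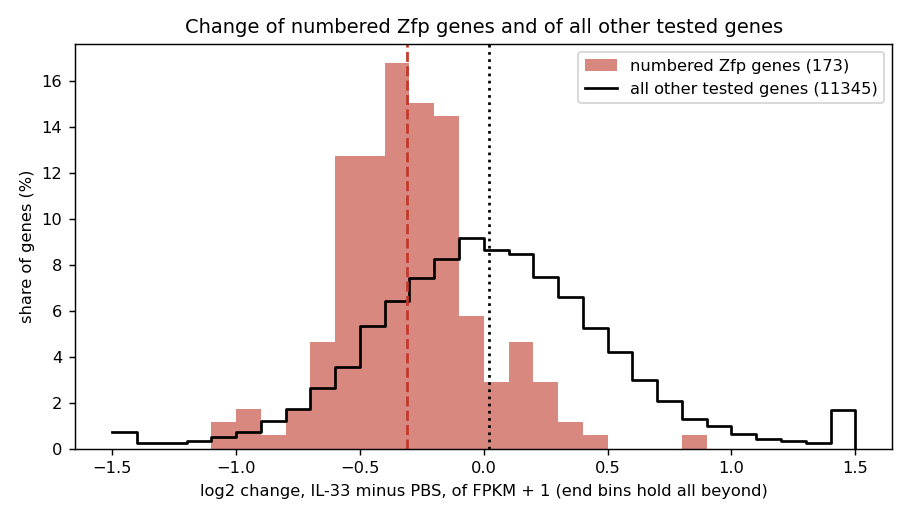
Distribution of the log2 change (IL-33 minus PBS) of the 173 tested numbered Zfp genes (filled bars) and of all 11345 other tested genes (black line), each as a share of its own set, with the medians as a dashed and a dotted vertical line. The numbered Zfp genes centre on -0.31 and the other genes on 0.02.

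The expressed members spanned a wide range of levels. By mean FPKM over the 6 libraries, 69 of the 239 were under 1, 87 between 1 and 5, 69 between 5 and 20, and 14 at 20 or more. Of the 239, 11 were listed at 0 in every library. Of the 66 genes not tested, 55 were above 0 somewhere, and in 45 of these the IL-33 mean was below the PBS mean. Of the 173 tested, 151 had at least 1 FPKM in all 6 libraries. In 5 of them, of which 2 fell (Zfp229 and Zfp420), every PBS library and no IL-33 library reached that level, and no gene showed the reverse. Genes that entered only through their PBS values had to differ, so the 173 do not stand for all 239. Without any filter, 9 of the 55 low genes fell and 1 rose, where 17.0% and 18.5% of all genes in that fit did.

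Zfp36 was by far the most abundant member per length. It encodes tristetraprolin, a CCCH-type protein that binds AU-rich elements in cytokine mRNAs and speeds their decay. Zfp36 had 1840, 1490 and 1900 FPKM in the IL-33 libraries, against 1590, 2170 and 1950 FPKM in the PBS libraries. The groups overlapped and the change of -0.13 (SE 0.14) did not pass (adjusted p = 0.481). It passed as a fall under 3 other scalings, with changes down to -0.67 (adjusted p 0.00342 to 0.937 over all alternatives).

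The next 5 members by level were Zfp207, Zfp263, Zfp384, Zfp622 and Zfp330. Zfp384, a nuclear factor that binds A-rich DNA, was at 30.9, 33.1 and 33 FPKM with IL-33, against 32.4, 31.7 and 32.7 FPKM with PBS. Zfp263 was at 33.5, 37.2 and 34.9 FPKM with IL-33, against 36.5, 41.1 and 40.8 FPKM with PBS. Zfp330 was at 31.6, 30.4 and 32.9 FPKM with IL-33, against 29.3, 29.9 and 27.7 FPKM with PBS. None of these 3 passed (adjusted p = 0.968, 0.107 and 0.148). With equal totals Zfp384, Zfp263 and Zfp330 passed as falls, with changes of -0.33, -0.49 and -0.21, and Zfp263 also passed with quantile normalization and cyclic loess (-0.30 in both).

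Genes of the ribosome and the spindle were among the few that rose. Zfp622, whose yeast counterpart Rei1 acts in late assembly of the large ribosomal subunit, had 37.0, 35.0 and 36.7 FPKM with IL-33, against 25.4, 26.5 and 26.8 FPKM with PBS. The groups did not overlap and the change was 0.45 (SE 0.06, adjusted p = 0.00135). Zfp593, whose yeast counterpart Bud20 accompanies the same subunit out of the nucleus, had 8.80, 8.02 and 9.05 FPKM with IL-33, against 6.67, 6.79 and 6.59 FPKM with PBS, a change of 0.32 (SE 0.07, adjusted p = 0.00954). Zfp207 (BuGZ), which loads the checkpoint protein Bub3 onto kinetochores, had 97.1, 109.0 and 103.0 FPKM with IL-33, against 81.6, 80.8 and 88.6 FPKM with PBS. Its change was 0.30 (SE 0.07, adjusted p = 0.0112). With equal totals Zfp622 and Zfp593 no longer passed (changes 0.12 and 0.02) and Zfp207 turned to -0.04.

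Zfp524 made the largest rise. The human protein of that name binds telomeric repeats. It had 29.5, 26.1 and 26.6 FPKM with IL-33, against 13.4, 14.2 and 16.8 FPKM with PBS, a change of 0.85 (SE 0.10, adjusted p = 0.000771), and it passed in all 20 alternatives. Of the 50-base stretches of its transcript, 46.0% also occur in another gene, most in Gm44973, and the gene overlaps Fiz1 on the opposite strand, so its value is uncertain as to the individual gene.

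The other rises were smaller. Zfp277, which binds the polycomb protein Bmi1, had 30.7, 29.0 and 35.2 FPKM with IL-33, against 22.3, 25.5 and 26.8 FPKM with PBS, a change of 0.34 that came to 0.01 with equal totals. Zfp219, Zfp444 and Zfp358 changed by 0.29, 0.26 and 0.23, and with equal totals by -0.03, -0.01 and -0.07. Zfp219 overlaps Arhgef40 and Tmem253 on the opposite strand. In place of 8, the count of rises was 4 without IL-33 replicate 1, 4 without PBS replicate 2 and 5 without PBS replicate 3. Such fits hold fewer libraries, so a lost call need not rest on the library left out.

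Of 5 further members with work on RNA, proteins or silencing, 4 fell and Zfp91 did not pass. Zfp638, which in human cells acts with the HUSH silencing complex on unintegrated retroviral DNA, had 15.1, 16.9 and 17.2 FPKM with IL-33, against 26.3, 27.2 and 24.3 FPKM with PBS, a fall of 0.63 (a change of -0.63, SE 0.08, adjusted p = 0.00104). Zfp451, a SUMO ligase, was at 6.67, 6.43 and 7.77 FPKM with IL-33, against 10.1, 10.9 and 9.30 FPKM with PBS, a change of -0.48 (adjusted p = 0.00504). Both separated the groups. Zfp598, a ubiquitin ligase that marks collided ribosomes, and Zfp106, an RNA-binding protein, passed with smaller changes of -0.25 and -0.32. Zfp91, a ubiquitin ligase of noncanonical NF-kB signalling, had 22.2, 23.5 and 26.2 FPKM with IL-33, against 27.9, 28.4 and 26 FPKM with PBS, and did not pass (adjusted p = 0.0792). It passed under 5 alternatives.

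Members with known roles in immune cells included the largest falls. Zfp318, which in mouse B cells allows the long immunoglobulin transcript that encodes IgD, had 2.80, 3.16 and 3.28 FPKM with IL-33, against 11.6, 6.89 and 5.52 FPKM with PBS. The change was -1.09 (SE 0.22, adjusted p = 0.00597), and PBS replicate 1 stood far above the other PBS libraries. B cell markers summed to 486, 424 and 362 FPKM in the IL-33 libraries, against 763, 421 and 319 FPKM in the PBS libraries, so PBS replicate 1 also held the highest B cell sum. The part of B cells in the change of Zfp318 was not tested. Without PBS replicate 1 the change was -0.81 (adjusted p = 0.00400), and over all alternatives the adjusted p ran between 0.00218 and 0.0359, with a change of -0.59 after the length and GC correction.

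Zfp366 (DC-SCRIPT) is a corepressor of nuclear receptors known from dendritic cells. It had 9.29, 11.3 and 15.9 FPKM with IL-33, against 27.5, 25 and 23.3 FPKM with PBS. All IL-33 libraries lay below all PBS libraries, with a change of -1.02 (SE 0.17, adjusted p = 0.00278). Beside it, 6 of 9 markers of type 1 conventional dendritic cells fell and 2 rose, with sums of 572 to 591 FPKM with IL-33, against 523 to 566 FPKM with PBS. Flt3, the receptor for the growth factor of dendritic cells, had 65.4, 72.5 and 86.6 FPKM with IL-33, against 115, 119 and 108 FPKM with PBS. Flt3 was 1 of the 2 that fell among 8 dendritic cell markers, of which 5 rose. Of 8 markers of type 2 conventional dendritic cells, 4 rose and 1 fell. The part of dendritic cell types in the change of Zfp366 was not tested.

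Zfp335, needed for T cell maturation in mice, had 8.48, 9.28 and 9.94 FPKM with IL-33, against 14.4, 13.2 and 12.9 FPKM with PBS, a change of -0.51 (SE 0.08, adjusted p = 0.00257). The T cell markers given above fell as well. Zfp608 was at 3.49, 4.11 and 3.87 FPKM with IL-33, against 8.87, 8.44 and 7.27 FPKM with PBS, with a change of -0.93 (SE 0.10, adjusted p = 0.000597), the smallest p of any named member. Its paralog Zfp609 changed by -0.47. Zfp521, a regulator of haematopoietic progenitors, was too low to test, at 0.203, 0.148 and 0.315 FPKM with IL-33, against 0.745, 0.947 and 0.905 FPKM with PBS. Plasmacytoid dendritic cell markers fell in 6 of 8, with sums of 236 to 274 FPKM with IL-33, against 292 to 405 FPKM with PBS.

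**Figure D3:**
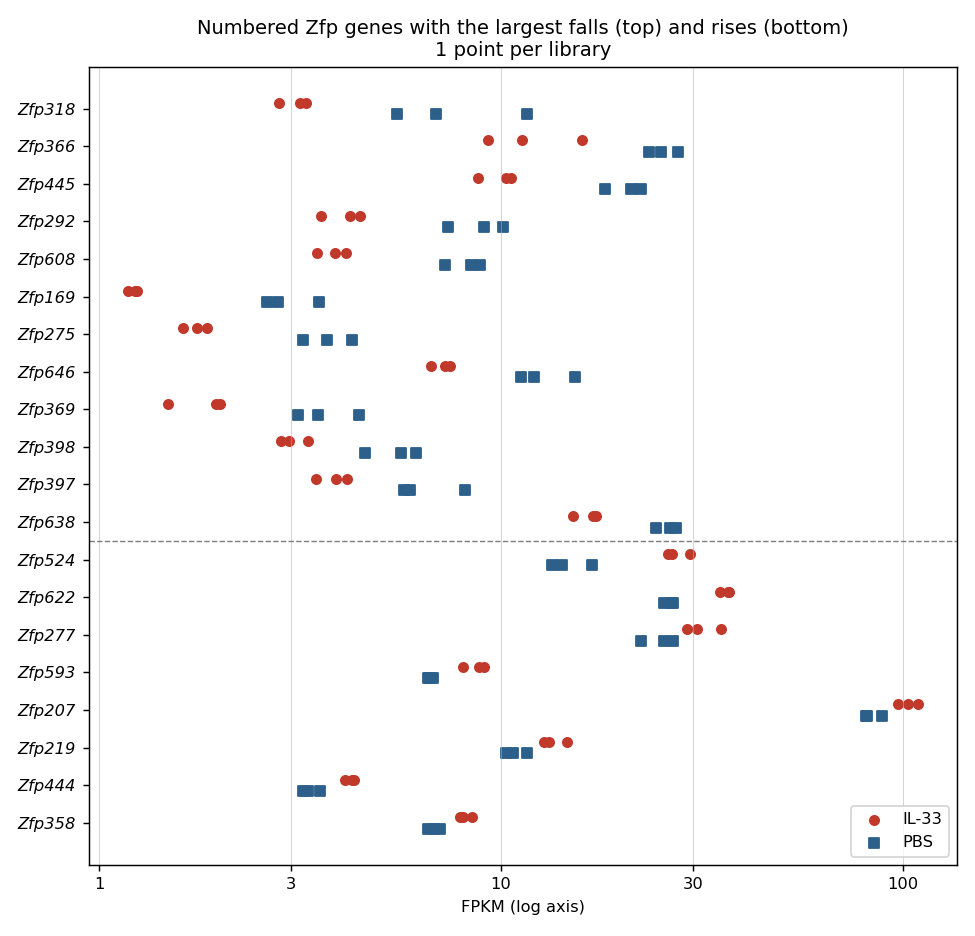
FPKM (log axis) in each library of the 12 numbered Zfp genes with the largest falls (top) and the 8 that rose (bottom), with IL-33 as circles above PBS as squares. In each of these genes the 3 IL-33 points lie on 1 side of the 3 PBS points.

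Several DNA-binding transcription factors of the role list fell, while Zfp384, Zfp263, Zfp410 and Zfp296 did not pass. Zfp143, the activator that binds promoters of small nuclear RNA and many other genes, had 7.95, 6.57 and 6.78 FPKM with IL-33, against 10.6, 11.6 and 11.5 FPKM with PBS, a change of -0.60 (SE 0.09, adjusted p = 0.00181). Zfp281 and Zfp148, related factors of GC-rich promoters, changed by -0.53 (SE 0.07) and -0.45 (SE 0.08). Zfp217, a partner of the CoREST corepressor, had 15.1, 15.3 and 16.6 FPKM with IL-33, against 23.2, 22.6 and 21.4 FPKM with PBS, a change of -0.49 (adjusted p = 0.00157). All of these separated the groups.

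Zfp592 and Zfp687, partners of the chromatin reader Zmynd8, changed by -0.57 (SE 0.10) and -0.36. The BTB protein gene Zfp131 changed by -0.40 (SE 0.10). Zfp292, a very long protein, had 3.56, 4.21 and 4.45 FPKM with IL-33, against 10.1, 9.07 and 7.38 FPKM with PBS, a change of -0.95 (SE 0.12, adjusted p = 0.00119). Zfp410, the activator of the remodeller gene Chd4, had 11.7, 12.3 and 12.3 FPKM with IL-33, against 12.4, 12.7 and 13.6 FPKM with PBS, and did not pass (adjusted p = 0.319). Zfp296 did not pass either (adjusted p = 0.0873). Both passed as falls with equal totals (-0.40 and -0.59) and with the length and GC correction (-0.20 and -0.58), and Zfp296 also with library weights (-0.35). The stem cell gene Zfp42 (Rex1) was listed at 0 in all libraries and Zfp423 was at or below 0.0399 FPKM.

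Of 35 members with a known role that were listed by hand, 31 were tested, of which 20 fell, 4 rose and 7 did not pass. Over all tested genes, 25.5% fell and 28.0% rose. The tested members of the list had a median transcript length of 4632 bases, against 2973 bases over all tested genes. The list was written with earlier results of these data known. Among members with less known roles, Zfp275, Zfp646, Zfp398 and Zfp397 changed by -0.78, -0.76, -0.67 and -0.64. Zfp646 overlaps Zfp668 and Prss53 on the opposite strand.

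Falls came at similar shares in genes with and without KRAB. A KRAB domain was found in the protein of 123 of the 235 members with a protein, and of these 82 were tested, 43 fell (52.4%) and 0 rose (median change -0.31). Among 112 members without the domain, 89 were tested, 49 fell (55.1%) and 8 rose (median change -0.32). Of all tested genes, 25.5% fell and 28.0% rose. Only 3 of the 82 KRAB genes had a positive change. The difference between the classes was not tested.

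Zfp445, which with Zfp57 keeps methylation at imprinted loci, was the KRAB gene with the largest fall on the log2(FPKM + 1) scale. It had 8.77, 10.6 and 10.3 FPKM with IL-33, against 22.3, 21 and 18.1 FPKM with PBS. All IL-33 values were lower, with a change of -0.98 (SE 0.10, adjusted p = 0.000602). Zfp57 itself was too low to test, at 0.296, 0.269 and 0.430 FPKM with IL-33, against 0.459, 0.540 and 0.270 FPKM with PBS. Zfp568, the repressor of a placental Igf2 transcript, had 2.05, 2.05 and 2.74 FPKM with IL-33, against 3.47, 3.53 and 2.84 FPKM with PBS, a change of -0.39 (adjusted p = 0.0306).

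Zfp169 had 1.24, 1.18 and 1.23 FPKM with IL-33, against 3.53, 2.78 and 2.62 FPKM with PBS, a change of -0.84 (SE 0.11, adjusted p = 0.00129). The IL-33 mean of this KRAB gene was 0.408 times its PBS mean, a lower ratio than the 0.484 of Zfp445. Zfp369 and Zfp110 encode paralogs that bind the neurotrophin receptor p75. They differed in their values, since Zfp369 changed by -0.73 (SE 0.13, adjusted p = 0.00389), whereas Zfp110 had 14.5, 16.1 and 15.6 FPKM with IL-33, against 16, 17.8 and 17.1 FPKM with PBS, and did not pass (adjusted p = 0.174). The difference between the paralogs was not tested.

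The partners of KRAB proteins were examined as a list of 29 genes, all tested, of which 15 fell and 2 rose (median change -0.22). Over all tested genes, 25.5% fell and 28.0% rose. The 29 genes had a median transcript length of 4320 bases, against 2973 bases over all tested genes. Of genes other than the numbered Zfp genes, 33.1% fell in the length class of 3483 to 4915 bases. The part of length in the count of this list was not tested. Trim28 and Setdb1 themselves did not pass. Trim28 had 55.6, 51.4 and 52.9 FPKM with IL-33, against 54.6, 51.9 and 49.6 FPKM with PBS, and Setdb1 had 15.8, 16.9 and 16.3 FPKM with IL-33, against 17.2, 16.4 and 15.6 FPKM with PBS. The groups overlapped in both (changes 0.03 and -0.01, adjusted p = 0.689 and 0.947). Of the HP1 genes, Cbx5 and Cbx1 fell (changes -0.50 and -0.20) and Cbx3 did not pass (0.09). Of the DNA methyltransferase genes, Dnmt3b and Dnmt3a fell (-0.40 and -0.23) and Dnmt1 did not pass (-0.34).

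Genes of the HUSH complex, which silences young transposons and recruits SETDB1, were lower with 1 exception. Fam208a (TASOR) had 3.31, 3.76 and 3.55 FPKM with IL-33, against 8.65, 7.83 and 6.47 FPKM with PBS, a change of -0.92 (SE 0.11, adjusted p = 0.000903). Mphosph8 had 7.52, 7.09 and 7.15 FPKM with IL-33, against 11.3, 12.4 and 11.0 FPKM with PBS, a change of -0.61 (SE 0.08). Its partner Morc2a changed by -0.62 (SE 0.08). Pphln1 (periphilin), the remaining subunit, had 11.7, 14.8 and 14.3 FPKM with IL-33, against 14.1, 14.4 and 13 FPKM with PBS and did not pass.

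Further falls on the list included those of Fam208b (-1.04), the remodeller Chd3 (-0.80), the SETDB1 partner Atf7ip (-0.75), Morc3 (-0.45) and Smarcad1 (-0.43). The rises were those of Ehmt2, a histone methyltransferase, and Uhrf1, a reader of hemimethylated DNA, at 0.35 and 0.45. Pphln1, Ehmt2, Uhrf1, Trim28, Setdb1 and the HP1 and DNA methyltransferase genes were named after their values were seen. With equal totals 25 of the 29 fell and 0 rose, where 50.7% of all tested genes fell and 11.1% rose.

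The number of fingers went with the change. A script counted C2H2 fingers in the translated coding sequence, with a median of 10 and a highest count of 36 in Zfp142. Of 88 tested genes with 10 or more fingers, 54 fell and 0 rose (median change -0.36). Of 54 genes with 5 to 9 fingers, 26 fell and 2 rose (median -0.29). Of 29 genes with fewer than 5, 12 fell and 6 rose (median -0.13). Over all tested genes, 25.5% fell and 28.0% rose. Across 171 members the rank correlation of change with finger number was -0.30, given as a description, and that of finger number with transcript length was 0.14. That of change with GC content was 0.35 across the members and 0.19 across 11090 tested genes. Zfp142 had 2.04, 2.83 and 2.97 FPKM with IL-33, against 4.44, 3.48 and 3.26 FPKM with PBS, and did not pass (adjusted p = 0.0517). It was named after its values were seen.

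**Figure D4:**
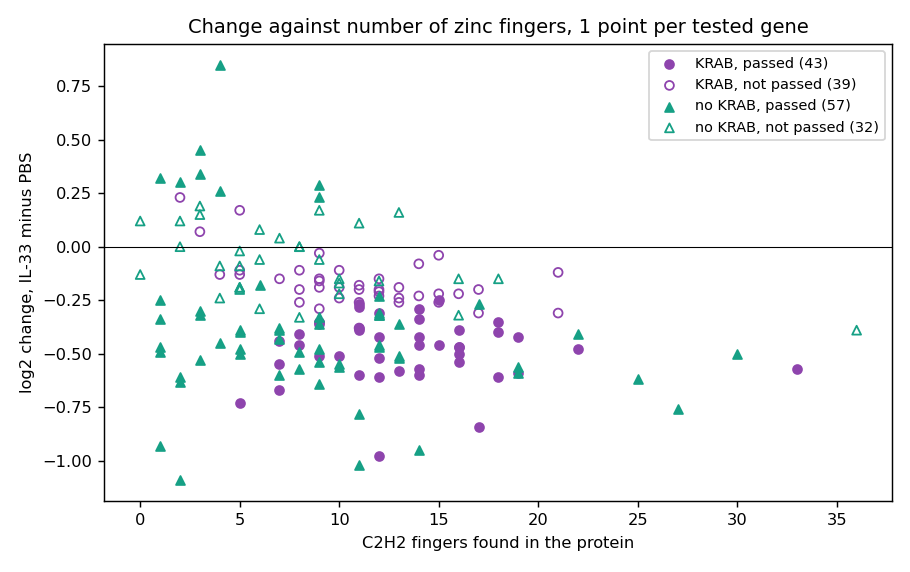
Log2 change (IL-33 minus PBS) against the number of C2H2 fingers, 1 point per tested gene, with KRAB genes as circles, other genes as triangles and genes past the threshold filled. The genes above 0 gather at low finger numbers, and no gene with 10 or more fingers rose past the threshold.

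Transcript length moved with the change in the whole transcriptome. Across all 11090 tested genes with a length, the rank correlation of change and length was -0.46, and it was -0.46 across the 171 Zfp genes too. With the tested genes in 5 classes of equal size by length, the longest class (4916 bases and up) held 47 Zfp genes, and 38 of these fell (80.9%), against 55.1% of other genes, with medians of -0.47 and -0.32. In the middle class, 23 of 49 Zfp genes fell (46.9%), against 18.0% of other genes, with medians of -0.26 and 0.03. The shortest class held only 6 Zfp genes, none of which fell, and their median was 0.14, against 0.33 for other genes. In each class the Zfp median lay below that of the other genes.

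After a correction of each library for length and GC content, chosen after the data had been seen, 66 of 171 Zfp genes fell and 7 rose, against 22.0% and 22.5% of all genes. The median change was then -0.23. Of the 93 genes that fell without the correction, 58 fell with it. Zfp148, Zfp451, Zfp609, Zfp687, Zfp568, Zfp593 and Zfp358 lost their calls under it, with changes of -0.02, -0.01, -0.12, -0.25, -0.09, 0.11 and 0.04, and Zfp106 turned to 0.07. Zfp318, Zfp366, Zfp445, Zfp608, Zfp292, Zfp143 and Zfp281 passed in every alternative.

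**Figure D5:**
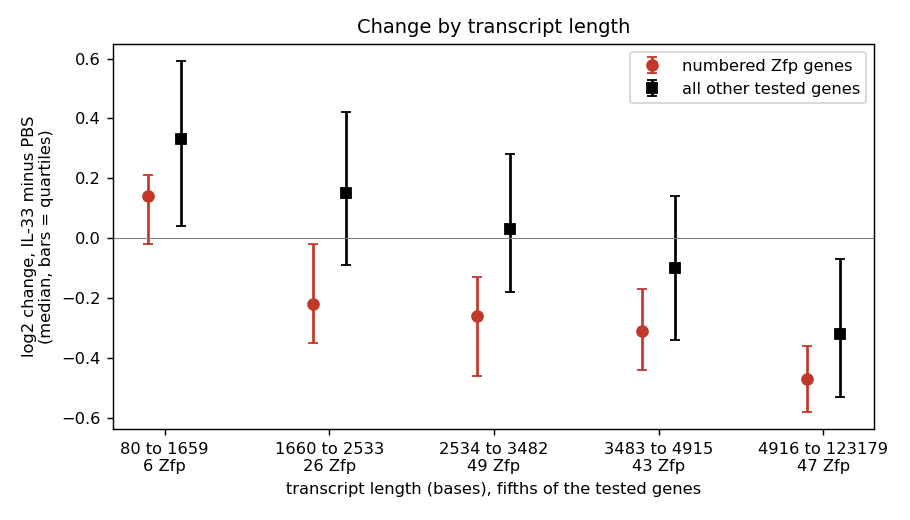
Median log2 change (IL-33 minus PBS) of the numbered Zfp genes (circles) and of all other tested genes (squares) in 5 classes of transcript length, with bars from the lower to the upper quartile. Medians run from 0.14 to -0.47 in the Zfp genes and from 0.33 to -0.32 in the other genes as transcripts lengthen.

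Zfp genes lie in groups along the chromosomes, with 65 of the members on chromosome 7, 22 on chromosome 13 and 20 on chromosome 17 (mm10, positions from GENCODE M21). In all, 134 members had another member within 500 kb, and 97 of these were tested, with 53 falls and 2 rises. Among 103 lone members 74 were tested, with 39 falls and 6 rises. The medians were -0.31 and -0.32. Of all tested genes, 25.5% fell and 28.0% rose.

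A run of 7 KRAB genes on chromosome 17 (chr17:21008903-21769342) held 7 tested genes, with a median change of -0.47. In this run 7 of the 7 fell, against 25.5% of all tested genes. Its last gene, Zfp229, was above 1 FPKM in the PBS libraries only and so had to differ, and without it 6 of 6 fell. Zfp160, its first gene, had 3.31, 3.89 and 2.69 FPKM with IL-33, against 6.12, 5.30 and 5.19 FPKM with PBS, a change of -0.61 (adjusted p = 0.00542). Zfp52 had 8.53, 10.1 and 8.43 FPKM with IL-33, against 13, 15.4 and 14.2 FPKM with PBS, a change of -0.60 (adjusted p = 0.00248). Zfp53 had the smallest change of the run, -0.25, at 11.7, 13.1 and 10.7 FPKM with IL-33, against 14.7, 14.8 and 13.3 FPKM with PBS. Its adjusted p lay just under the threshold and rounds to 0.05. These neighbours are paralogs, and the run was named after its values were seen.

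A run of 13 members on chromosome 7 (chr7:29768552-30169750) held 11 tested genes. In this run 8 of the 11 fell, against 25.5% of all tested genes, and 0 rose (median change -0.39). Zfp146, at its end, had 10.2, 12.4 and 10.8 FPKM with IL-33, against 17.8, 16 and 16.8 FPKM with PBS, a change of -0.56 (adjusted p = 0.00224). Zfp382 had 1.79, 1.67 and 1.60 FPKM with IL-33, against 2.88, 2.90 and 2.65 FPKM with PBS, a change of -0.51 (adjusted p = 0.00330). Zfp420, at 0.854, 0.410 and 0.668 FPKM with IL-33, against 1.72, 1.60 and 1.11 FPKM with PBS, entered the test only through its PBS libraries and so had to differ. Without it 7 of 10 fell. In a run of 13 members on chromosome 13, by contrast, 4 of 9 tested genes fell and 5 did not pass, and in a run of 14 near Zfp180 on chromosome 7 only 6 were tested, with 2 falls. The difference between runs was not tested.

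Most tested genes of the chromosome 7 run share letters in their promoters. RefSeq promoter sequences (GRCm38.p6, 250 bases before the annotated start) were found for 191 members. In them the letters ACTAC, any 2 bases and then TTCCC, part of the sequence that Zfp143 is known to bind, were searched on both strands. They stood in 33 of the 191 promoters (17.3%), against 2.56% of promoters of tested genes and 1.11% of all 27025 in the table. The letters were chosen after a search for the STAT pattern TTCNNNGAA had found it in 44 members (23.0%, against 7.32% of tested genes), in 18 of them as TTCCCAGAA, its commonest form, which overlaps the end of the Zfp143 letters. In 22 promoters both were present. Of the 11 tested genes of the run, 7 carried the Zfp143 letters, shown here with capitals on the match and 9 bases on each side, each read 5′ to 3′ on the strand given.
Zfp84 (chr7:29768520-29768549, minus strand): ttatagtggACTACATTTCCCagaaggcgg
Zfp420 (chr7:29859911-29859940, plus strand): agccattggACTACATTTCCCagagccacc
Zfp383 (chr7:29908467-29908496, plus strand): caatcgcggACTACATTTCCCagaagcgtt
Zfp74 (chr7:29954096-29954125, plus strand): ttgctttgaACTACATTTCCCagagccctt
Zfp566 (chr7:30090566-30090595, minus strand): ctcggactgACTACATTTCCCagagggctc
Zfp260 (chr7:30095038-30095067, minus strand): taactgtgaACTACATTTCCCagaagtctc
Zfp146 (chr7:30169851-30169880, plus strand): cgactttggACTACACTTCCCacaaggcac

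Of these 7 genes 5 fell, among them Zfp420 that entered the test only through its PBS libraries, and 2, Zfp383 and Zfp566, did not pass. Zfp260 had 6.83, 6.91 and 7.48 FPKM with IL-33, against 11.5, 10.1 and 8.90 FPKM with PBS, a change of -0.46 (adjusted p = 0.00696). Zfp566 had 1.88, 1.77 and 2.48 FPKM with IL-33, against 2.43, 2.19 and 2.49 FPKM with PBS, and the groups overlapped. In the chromosome 17 run, where all 7 tested genes fell, 0 carried the letters. In the chromosome 13 run 4 of 9 tested genes carried them. Genes with no promoter found count here as without the letters. The letters thus stood in genes that fell and in genes that did not pass, and a match is a description of letters and not of binding.

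The letters went with the KRAB class. They stood in 28 of 105 KRAB promoters (26.7%) and in 5 of 86 promoters of members without KRAB (5.81%). By call, they stood in 15 of 73 promoters of genes that fell (20.5%), in 7 of 61 of genes that did not pass (11.5%) and in 0 of 6 of genes that rose. In 2 of these 22 tested genes, Zfp128 and Zfp85, the match stood too near the window's edge for its flanks to be read. Neither difference was tested. Outside chromosome 7, Zfp317 carried the letters at both chr9:19621858-19621887 and chr9:19621902-19621931 on the plus strand, and the stretches there read as follows.
Zfp317, distal: caactagaaACTACATTTCCCataaaccct
Zfp317, proximal: aacgtagaaACTACATTTCCCataaaccat
Zfp317 had 4.54, 5.64 and 4.68 FPKM with IL-33, against 8.73, 7.52 and 7.35 FPKM with PBS, a change of -0.58 (adjusted p = 0.00357).

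Promoters of 3 members, of which Zfp318 and Zfp445 fell and Zfp622 rose, are shown for their base composition. They run in the sense of the gene, 250 bases up to the start. No promoter was found for Zfp366 or Zfp524. Capitals mark the GC box GGGCGG (either strand) and, in Zfp445, also the STAT pattern TTCNNNGAA. Zfp318, with the largest fall, has 39 CpG dinucleotides and 79.6% GC there, Zfp445 has 5 and 50.4%, and Zfp622, which rose, has 14 and 60.0%. The median over members is 13 CpG and 56.0% GC. A GC box stands in 46.6% of member promoters, against 63.1% of those of tested genes.
Zfp318 (chr17:46383516-46383765, plus strand): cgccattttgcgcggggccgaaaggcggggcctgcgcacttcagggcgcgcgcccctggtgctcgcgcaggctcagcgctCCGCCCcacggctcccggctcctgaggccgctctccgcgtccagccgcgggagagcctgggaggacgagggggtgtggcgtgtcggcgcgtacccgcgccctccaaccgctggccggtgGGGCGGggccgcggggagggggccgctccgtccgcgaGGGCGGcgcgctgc
Zfp445 (chr9:122866007-122866256, minus strand): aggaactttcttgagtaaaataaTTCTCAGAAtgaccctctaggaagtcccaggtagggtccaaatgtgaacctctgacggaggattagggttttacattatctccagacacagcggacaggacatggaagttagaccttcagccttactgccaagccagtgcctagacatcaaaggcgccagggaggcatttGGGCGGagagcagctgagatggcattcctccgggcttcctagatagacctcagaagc
Zfp622 (chr15:25984116-25984365, plus strand): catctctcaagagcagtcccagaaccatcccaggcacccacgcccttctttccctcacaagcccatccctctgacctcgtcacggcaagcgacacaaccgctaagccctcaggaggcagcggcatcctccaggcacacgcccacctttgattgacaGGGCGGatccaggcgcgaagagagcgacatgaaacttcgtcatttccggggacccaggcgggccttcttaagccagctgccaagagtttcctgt

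Other zinc finger families also held more falls than rises, where 25.5% of all tested genes fell and 28.0% rose. Of 75 tested Zfp genes numbered 700 or above, 36 fell (48.0%) and 3 rose (median change -0.28). Of 38 Zbtb genes, which pair fingers with a BTB domain, 17 fell (44.7%) and 2 rose (median -0.24). Of 17 Zc3h genes, which encode CCCH fingers that bind RNA, 12 fell (70.6%) and 2 rose (median -0.41). Of 16 Zscan and Zkscan genes, 10 fell (62.5%) and 1 rose (median -0.35). In the order given, these families had median transcript lengths of 3118, 4971, 3825 and 4215 bases, against 2973 bases over all tested genes. Of genes other than the numbered Zfp genes, 33.1% fell in the length class of 3483 to 4915 bases. In the longest class (4916 bases and up) 55.1% did. The part of length in the counts of these families was not tested. At the edge of the number rule, Zfp692 had 6.40 ± 0.755 FPKM with IL-33 and 8.72 ± 0.765 FPKM with PBS (SD, n = 3 each), and Zfp697 was near 0. Just outside it, Zfp703 had 45.3 ± 7.01 FPKM with IL-33 and 22.0 ± 3.46 FPKM with PBS (SD, n = 3 each), and Zfp704 was below 0.5 FPKM in every library.

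Some of the named calls were lost when 1 library was left out. Such fits hold fewer libraries, so a lost call need not rest on the library left out. Zfp598 did not pass without any 1 of 5 libraries (all but PBS replicate 2), Zfp106 without IL-33 replicate 1 or 2 or PBS replicate 1 or 2, and Zfp687 without IL-33 replicate 1 or 2 or PBS replicate 1. Zfp568 did not pass without IL-33 replicate 1 or 2 or PBS replicate 1 or 2. Among the rises, Zfp277 did not pass without IL-33 replicate 1 or 3 or PBS replicate 1 or 2, and Zfp219 without IL-33 replicate 1 or PBS replicate 2 or 3. Zfp444 did not pass without IL-33 replicate 1 or 2 or PBS replicate 2 or 3, and Zfp358 without any 1 of 5 libraries (all but IL-33 replicate 3). Over all alternatives the adjusted p reached 0.108 for Zfp598, 0.316 for Zfp106, 0.0957 for Zfp687, 0.461 for Zfp568, 0.958 for Zfp277, 0.812 for Zfp219, 0.952 for Zfp444 and 0.636 for Zfp358, and their lowest values were 0.00265, 0.00212, 0.00267, 0.00465, 0.0193, 0.0103, 0.00459 and 0.00813 in that order. Zfp91 passed without IL-33 replicate 3 (adjusted p = 0.0378, with 0.00306 to 0.912 over all alternatives).

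Sequence shared between genes limits some values. In 29 members more than 10% of the 50-base stretches also occur in another gene. Of these 21 were tested, with 8 falls and 1 rise, that of Zfp524, where 25.5% of all tested genes fell and 28.0% rose. Exons of 29 members overlap another listed gene, and whether the authors counted by strand is not given in the sources used here.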

How the data were processed

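RNA sequencing libraries were made from DNase-treated total RNA of sorted CD11c+ cells with a stranded mRNA kit, per the labels' protocols. The authors deposited 1 table of FPKM values per library. Per the submitters' processing notes, Cuffnorm 2.2.1, SAMtools 0.1.19, TopHat2 2.0.13 and Bowtie2 2.2.3 were used with the build mm10. Neither the annotation nor the scaling and strand settings are given in these sources. Absolute depth is unknown.

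Values were analysed as log2(FPKM + 1), with a filter of at least 1 FPKM in at least 3 of 6 libraries, by limma 3.58.1 (R 4.3.3) with a variance trend, 1 treatment term and Benjamini-Hochberg adjustment over all 11518 tested genes (two-sided, threshold 0.05). The code was tested on simulated data. Errors are SE of the log2 change or SD with n = 3. Lengths, positions and translated coding sequences came from GENCODE M21, in which 237 members matched. A C2H2 finger was 2 cysteines with 2 to 4 residues between them, 12 residues, then 2 histidines with 3 to 5 residues between them. KRAB and SCAN domains were found with profile searches (pyhmmer 0.12.3, E-value below 0.001) seeded from Zfp445 and Zfp263. Promoters came from RefSeq.

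The members and lists were chosen with earlier results of these data known. Named genes were the hand-written list of known roles, the 12 largest falls and all 8 rises with separated groups, the 6 highest members and up to 8 TRIM28 partners by adjusted p. Others are named as chosen after their values were seen or for the sequences, runs or number limit they illustrate. Alternatives covered the pseudocount, the filter, scaling, variance settings, replicate block, library weights, each library left out and length with GC content. Figures used Python 3.11.15 and matplotlib 3.10.9.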

Additional observations from a re-analysis of the deposited data

How the results depend on the processing

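In all 20 alternatives the median change of the numbered Zfp genes stayed negative and more of them fell than rose. The median of -0.31 was -0.42 and -0.35 with pseudocounts of 0.1 and 0.5, -0.24 with no filter, -0.27 with a filter of 5 FPKM, -0.58 with equal totals, -0.25 with quantile normalization, -0.19 with cyclic loess and -0.23 with the length and GC correction. Set against the median of all tested genes it was -0.43 with a pseudocount of 0.1, -0.23 with no filter, -0.23 with quantile normalization, -0.20 with cyclic loess and -0.22 with the length and GC correction. The count of falls was 48 with the 5 FPKM filter, which tests fewer genes, 149 with equal totals and 61 with cyclic loess, and the count of rises was 1 with equal totals. Of the TRIM28 partners, 0 rose and 25 fell with equal totals, where 11.1% of all tested genes rose and 50.7% fell. Of these partners 1 rose under quantile normalization and 1 under cyclic loess. Leaving out each library in turn gave 67 to 82 falls, 4 to 7 rises and medians between -0.33 and -0.28. The labels do not say whether the replicate numbers mark pairs. Same-numbered libraries deviated together with correlations of 0.075, -0.054 and 0.089, and differently numbered ones with -0.113 to 0.056. With 3 libraries per group these values cannot decide whether the libraries were paired. With the replicate number as a block 77 genes fell and 6 rose. With equal totals the changes of Zfp207, Zfp384, Zfp219, Zfp444, Zfp358 and Zfp330 turned to -0.04, -0.33, -0.03, -0.01, -0.07 and -0.21, with cyclic loess that of Zfp207 turned to -0.00, and with the length and GC correction that of Zfp106 turned to 0.07. The cause of these shifts was not tested. Over the named genes, 890 values under the alternatives stayed on their side of the threshold, 58 lost the call, 17 gained one and 8 turned round, being called in at least 1 of both fits. The 890 include uncalled values of the other sign, such as 0.01 for Zfp91 with the length and GC correction. Depth limits the 66 genes that were too low to test.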

Other observations

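The members too low for the filter are given as values. In the fit without a filter, 9 of the 55 low members fell, a share near the 17.0% of all genes that fell in that fit, and 1 rose, against 18.5% of all genes. Zfp184 had 0.178, 0.0811 and 0.0289 FPKM with IL-33, against 0.410, 0.527 and 0.517 FPKM with PBS. Zfp551 had 0.269, 0.159 and 0.169 FPKM with IL-33, against 0.705, 0.412 and 0.711 FPKM with PBS. In both genes the IL-33 libraries lay below the PBS libraries. Zfp493, on the chromosome 13 run, had 0.518, 0.485 and 0.447 FPKM with IL-33, against 1.11, 1.10 and 0.823 FPKM with PBS. Zfp428 was the low member that rose, at 1.06, 1.13 and 0.969 FPKM with IL-33, against 0.666, 0.688 and 0.548 FPKM with PBS. At these levels the FPKM values rest on few fragments. These genes were chosen after their values were seen.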
